A study of Mus musculus with 8 samples.

Results

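A set of 10 gene symbols, chosen for the passage of sperm into the oviduct and the maturation of the sperm surface protein ADAM3, was looked up in the raw counts of mouse testis, and 9 of the 10 were found among 56748 gene rows. They are Clgn, Calr3, Tex101, Ly6k, Cmtm2a, Cmtm2b, Ace, Tpst2 and Rnase10. No row maps to the symbol Pdilp. The row of Pdilt, the gene of a testis protein disulfide isomerase, was read beside the 9 genes after this was found, and it is counted with none of their totals. RNA was sequenced from adult testis in 4 libraries labelled Ssty2 knockout (genotype Ssty2-/-) and 4 labelled wild type (WT). The labels give no strain, exact age, litter or design of the knockout allele, and they do not say that the libraries came from separate animals. All p-values therefore rest on library-to-library spread, part of which may be technical.

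ADAM3 belongs to a family of membrane proteins with a metalloprotease-like domain and is made in the germ cells of the testis. It is folded in the endoplasmic reticulum (ER) with the help of chaperones made mainly in germ cells, joined to other ADAM proteins, and carried to the sperm surface. Male mice without ADAM3, or without any of several genes that it needs, make sperm that are motile but do not enter the oviduct through the uterotubal junction. The genes below act at different points on that route: folding (Clgn, Calr3, Pdilt), surface partners (Tex101, Ly6k) and membrane trafficking (Cmtm2a, Cmtm2b). Ace and Tpst2 encode enzymes of the sperm surface and the Golgi, and Rnase10 encodes a secreted protein of the epididymis.

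The targeted gene, Ssty2, was counted 56, 78, 83 and 45 times in wild-type replicates 1 to 4 and 0 times in each knockout library. Of its 31-base words, 100% also occur in other genes, mainly Gm20852, Gm20806 and Gm20825. How reads that match several genes were counted is not given in the sources used here. Reads of Ssty2 therefore cannot be told apart from those of these genes. The libraries held between 18036708 and 24415587 counts (exact permutation p for the difference in depth = 0.743, two-sided). Within a group, pairs of libraries differed by more than sampling noise (chi-square of 4.19 to 8.52 per degree of freedom), so none was a repeat deposit. Mitochondrial transcripts took 1.04% to 1.35% of counts in wild type and 0.661% to 0.755% in knockout. Levels are given as CPM, the counts of a gene relative to the library's size after TMM scaling, which sets that size by a trimmed mean of gene ratios. Of 21952 genes tested, 53.5% passed an adjusted p of 0.05 (edgeR quasi-likelihood test, Benjamini-Hochberg adjusted over all of them), 26.2% as higher and 27.4% as lower in knockout, and 46.7% did not overlap between the groups. In bulk tissue, fewer cells of a type and less RNA per cell cannot be told apart. Levels of cell type marker genes differed between the groups on the TMM scale. All 16 round spermatid markers rose (14 with library totals), with a median log2 fold change of 0.50. Of 14 elongating spermatid markers, 13 rose (12 with library totals) and none fell, with a median of 0.57. All 12 Leydig cell markers fell (12 with library totals), with a median of -0.98. With library totals 3848 of all tested genes were higher and 8255 lower. Scaled to the summed counts of the round spermatid markers themselves, 3 of these markers were higher and 4 lower. That scale holds their sum level by construction, so it cannot show whether they rose.

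Of the 9 genes, 4 rose (Clgn, Cmtm2a, Cmtm2b and Ace), 3 fell (Tex101, Ly6k and Tpst2) and 2 did not pass the test (Calr3 and Rnase10). The rises were lost or turned when counts were scaled to round spermatid markers, as given with the scalings. The part of spermatids in these rises and in that of Pdilt was not tested. With 7 of 9 genes called against 53.5% of all genes, and 7 of 9 not overlapping between the groups against 46.7%, the size and direction of the single genes carry more than their number. Their median log2 fold change was 0.14, beside -0.01 for all tested genes. All 9 passed the filter on low counts, and together they made up between 0.221% and 0.239% of a library's counts.

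**Figure D1:**
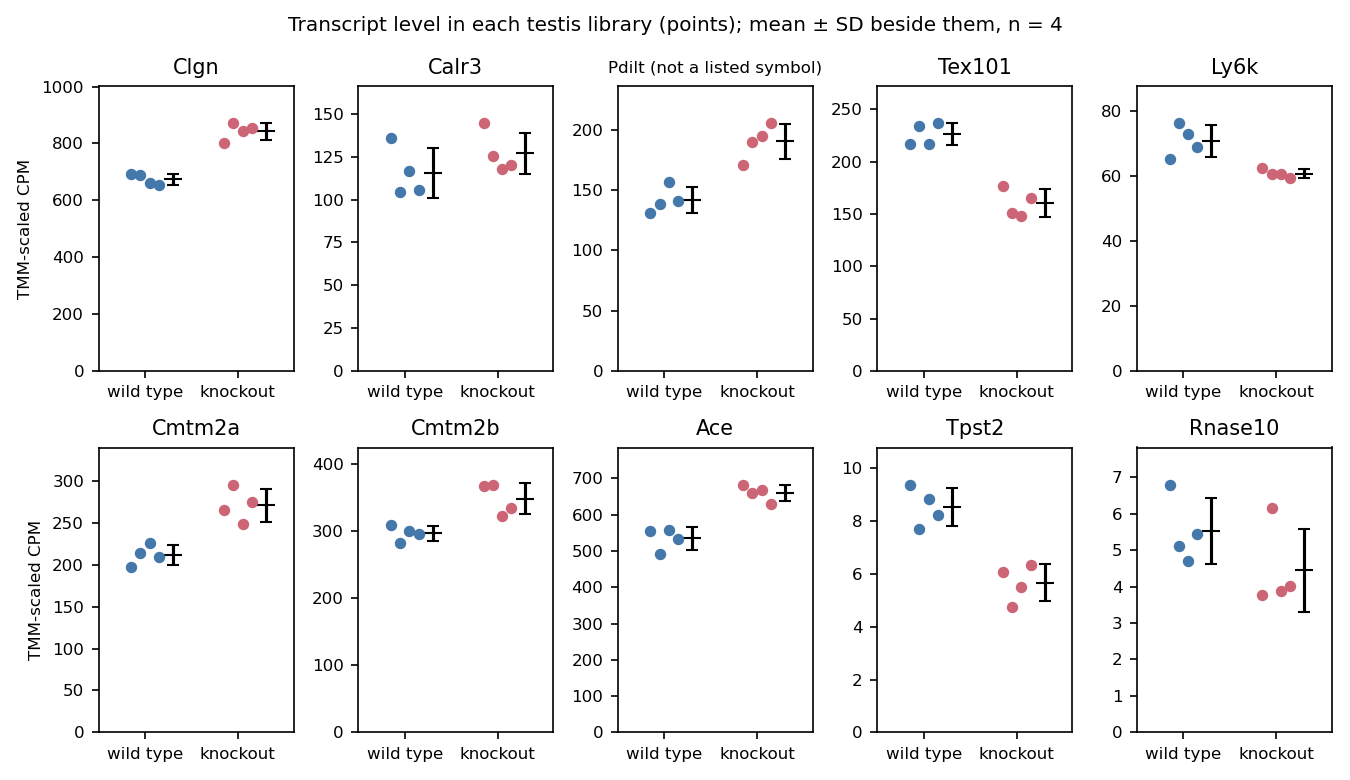
TMM-scaled CPM (y axis, from 0) of the 9 genes and of Pdilt in each library, wild type in blue and knockout in red, with mean ± SD (n = 4) beside the points. For Clgn, Pdilt, Cmtm2a, Cmtm2b and Ace all knockout points lie above all wild-type points on this scale, which turns when counts are scaled to round spermatid markers; Tex101, Ly6k and Tpst2 lay lower, and Calr3 and Rnase10 overlapped.

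Clgn encodes calmegin, a germ-cell relative of calnexin that sits in the ER membrane and helps ADAM proteins pair. It stood at 691, 689.6, 659.7 and 654 CPM in wild-type replicates 1 to 4 and at 802, 871, 843 and 854 CPM in knockout replicates 1 to 4. The groups did not overlap, and the lowest knockout library was above the highest wild-type library. From 673.5 ± 19.4 to 843 ± 29.4 CPM (mean ± SD, n = 4), the log2 fold change was 0.32 ± 0.0477 (SE; adjusted p = 3.51e-05). This places Clgn above 74.8% of all tested genes in fold change.

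Calr3 encodes calsperin, a germ-cell relative of calreticulin that ADAM3 needs directly. Its level was 136, 104, 117 and 106 CPM in wild type and 145, 125, 118 and 120.2 CPM in knockout. The groups overlapped. The log2 fold change of 0.14 did not pass (SE 0.0826, 95% interval -0.04 to 0.31; adjusted p = 0.179) and its interval overlaps that of Clgn (0.22 to 0.42). Single libraries moved it both ways: it was 0.21 without wild-type replicate 1 (adjusted p = 0.0263), 0.069 without knockout replicate 1 (adjusted p = 0.483) and 0.083 without wild-type replicate 2 (adjusted p = 0.45). Over all alternatives it ran from -0.38 to 0.21.

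Pdilt encodes a disulfide isomerase relative of the testis that works with calmegin and calsperin on ADAM3. It stood at 131, 138, 156 and 141 CPM in wild type and at 171, 190.1, 194 and 205 CPM in knockout, with no overlap. The log2 fold change was 0.43 ± 0.0660 (SE; adjusted p = 5.64e-05). Of its 31-base words, 9.97% also occur in other genes, Gm37518 and Acsm5, which lie over it on the opposite strand and held 26 to 61 counts per group of 4 libraries. Since the strand setting of the counting is not given in the sources used here, such reads cannot be told apart.

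The germ-cell chaperones were then set against their relatives that work in most tissues, as the log2 ratio of counts within each library, which does not depend on how libraries are scaled. Clgn over calnexin (Canx) rose from 1.46 ± 0.108 to 2.01 ± 0.0509, a change of 0.55 (exact permutation p = 0.0286, the smallest that 4 against 4 allows; adjusted p over 6 ratios = 0.0429). Pdilt over P4hb, the common protein disulfide isomerase, rose from 0.18 ± 0.100 to 1.29 ± 0.0544, which makes the ratio 2.16-fold larger in knockout (same exact p and adjusted p). In both ratios every knockout library lay above every wild-type library. Calr3 over calreticulin (Calr) went from -2.38 ± 0.205 to -2.10 ± 0.120 with overlapping libraries (exact permutation p = 0.0857, adjusted p = 0.103). A ratio shows unequal change of its terms and not which of them changed.

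**Figure D2:**
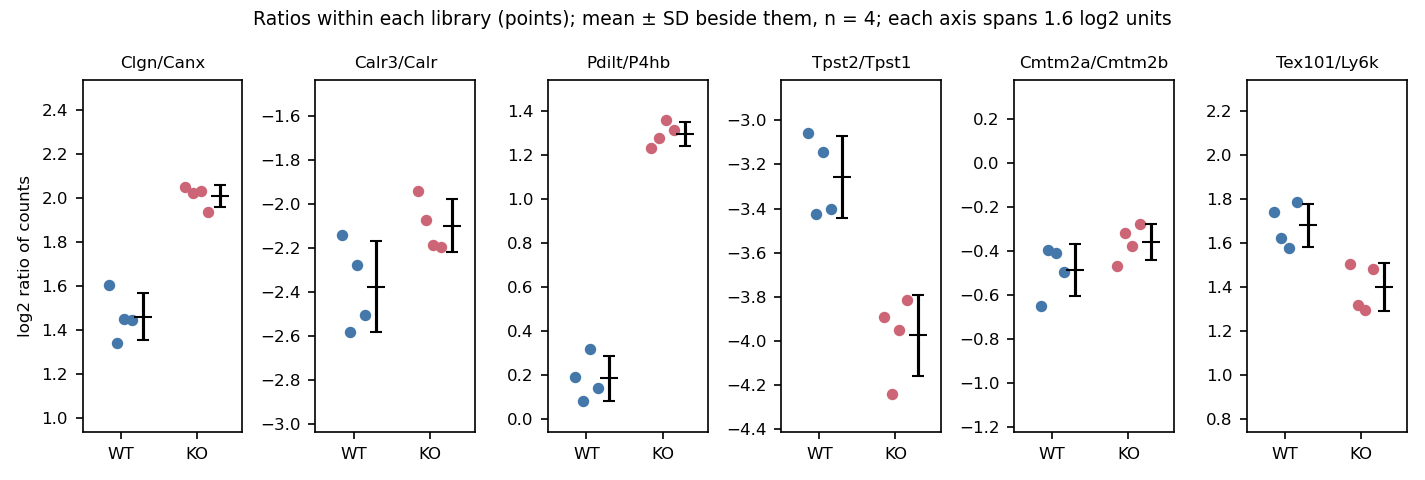
Log2 ratio of counts (y axes, each spanning the same number of log2 units) of 6 gene pairs in each library, wild type (WT) in blue and knockout (KO) in red, with mean ± SD (n = 4). The ratios Clgn/Canx and Pdilt/P4hb are apart and higher in knockout, Tpst2/Tpst1 and Tex101/Ly6k are apart and lower, and Calr3/Calr and Cmtm2a/Cmtm2b overlap.

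Among 14 general ER folding genes, 10 fell, 1 rose and 3 did not pass, against 27.4% lower and 26.2% higher of all tested genes. Their median log2 fold change was -0.23 beside -0.01 for all genes. P4hb fell from 124 ± 6.82 to 77.5 ± 4.24 CPM (log2 fold change -0.68; adjusted p = 1.97e-07). Pdia4 (-0.63) and Uggt1 (-0.58), which encode a further disulfide isomerase and the sensor that returns misfolded glycoproteins to the chaperones, fell as well. Hspa5, the gene of the main ER Hsp70 protein, fell by 0.33 on the log2 scale. Canx fell by 0.23 (adjusted p = 0.00579) and Calr by 0.14 (adjusted p = 0.0237), and leaving out knockout library 2, knockout library 3 or wild-type library 4 ended the Calr call (adjusted p between 0.054 and 0.0619). The one that rose, named after its value was seen, was Ero1b (0.18), an oxidase that drives disulfide formation. With library totals none rose and 13 fell, against 3848 higher and 8255 lower of all 21952 tested genes. All 14 fell with round spermatid scaling, where the share of all genes called was not counted. The median of all tested genes was itself at -0.53 with round spermatid scaling. In the same libraries the summed level of 14 Sertoli cell markers ran from 1977 to 2220 CPM in wild type and from 1317 to 1485 CPM in knockout, and that of 12 Leydig cell markers from 2029 to 2351 and from 1108 to 1238 CPM. The part of these cells in the fall of the general ER genes was not tested.

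Tex101 encodes a GPI-anchored surface protein of the Ly6/uPAR family that binds ADAM3 on testicular germ cells and is removed from sperm in the epididymis. Its level was 217, 234, 217 and 237 CPM in wild-type replicates 1 to 4 and 177, 151, 148 and 165 CPM in knockout replicates 1 to 4. All 4 knockout libraries lay below all 4 wild-type libraries. The fall from 226 ± 10.8 to 160.2 ± 13.3 CPM amounted to 0.708-fold (log2 fold change -0.50 ± 0.0621 SE; adjusted p = 6.78e-06). Tex101 kept its direction and its call in all 17 alternatives run, with values from -1.02 to -0.46. Ly6k (-0.74 to -0.19) and Tpst2 (-1.11 to -0.52) kept theirs in the same alternatives. Markers of early germ cells moved in the same libraries: of 12 spermatogonia markers 9 fell and 1 rose (median -0.75), with summed levels of 245 to 271.5 CPM in wild type and 164 to 172 CPM in knockout. Of 18 spermatocyte markers 6 fell and 6 rose (median -0.06), against 9 and 4 with library totals and 16 and 0 with round spermatid scaling. All 21952 tested genes had 27.4% lower and 26.2% higher, and 8255 lower and 3848 higher with library totals. With round spermatid scaling this share was not counted. Dmc1, a recombinase gene of early meiosis, had a log2 fold change of -0.70 and Meiob, a further meiotic recombination gene, of -0.83, while Pgk2, a glycolytic gene of late spermatocytes and spermatids, had 0.59. The part of these cells in the values of Tex101 and Ly6k was not tested.

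The 250 bases before the annotated start of Tex101 (GRCm38.p6, chr7:24672051-24672300, minus strand, from RefSeq) are shown because Tex101 fell while most genes of its route did not. Capitals mark CCAAT or its complement ATTGG, the letters bound by the NF-Y factor; the search also covered TGACGTCA and TGAGGTCA, on both strands.
Tex101: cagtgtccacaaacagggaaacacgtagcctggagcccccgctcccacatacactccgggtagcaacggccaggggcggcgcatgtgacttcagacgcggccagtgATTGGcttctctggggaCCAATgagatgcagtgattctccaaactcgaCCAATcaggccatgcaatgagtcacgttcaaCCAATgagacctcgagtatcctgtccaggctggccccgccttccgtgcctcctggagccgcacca
The window holds 4 such CCAAT matches and neither of the other motifs. Of the other genes that fell, Tpst2 has windows with 0, 1 and 1 CCAAT matches, and Ly6k had no window to search. Genes that did not fall held matches too: 1 each in the windows of Cmtm2a, Cmtm2b, Pdilt and Calr3, and 0 or 1 in those of Ace and Rnase10. A link between the matches and the direction of change was not tested. Of 32851 RefSeq promoter windows of the same length, 33.8% hold at least 1 CCAAT and 0.84% hold at least 4. A match of letters is a description and does not show binding.

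Ly6k encodes a second GPI-anchored protein of the same family, a partner of TEX101 in germ cells. It was at 65.1, 76.2, 72.8 and 68.8 CPM in wild type and at 62.4, 60.5, 60.5 and 59.2 CPM in knockout. The groups lay apart by a narrow margin, the knockout libraries close together and the wild-type libraries more spread. The log2 fold change was -0.22 ± 0.0617 (SE; 95% interval -0.35 to -0.09; adjusted p = 0.00628), a smaller fall than that of Tex101. Tex101 over Ly6k went from a log2 ratio of 1.68 ± 0.0966 to 1.40 ± 0.109 (exact permutation p = 0.0286, adjusted p over 6 ratios = 0.0429). Gm17189 lies over Ly6k on the opposite strand and shares 39.1% of its 31-base words, with 51 wild-type and 27 knockout counts against 6306 and 4747 for Ly6k. Reads of this pair cannot be told apart either.

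Other Ly6/uPAR genes of the testis went both ways, 5 higher and 3 lower of 9 tested (4 and 4 with library totals, 0 and 6 with round spermatid scaling). Beside them, 26.2% of all 21952 tested genes were higher and 27.4% lower, and 3848 and 8255 with library totals. On the round spermatid scale this share was not counted. Lypd4 (0.39) and Spaca4 (0.47), the latter a sperm membrane gene, rose on the TMM scale, as did Ly6g6c (0.41). Ly6e (-0.41), which is widely expressed, fell. Dpep3, the gene of a GPI-anchored dipeptidase that forms a complex with TEX101, had a value of 0.22 on the same scale (adjusted p = 0.00239; named for this known complex after its value was seen).

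Cmtm2a and Cmtm2b encode membrane proteins with a MARVEL-type domain; male mice that lack both genes have sperm without mature ADAM3. They are neighbours on chromosome 8 with opposite strands. Their upstream sequences are shown because both genes rose and because the windows are near copies of each other: 242 of 247 aligned bases (98.0%) were identical, with 1 base in a gap. The windows are the 250 bases before each start (GRCm38.p6, from RefSeq), chr8:104293182-104293431 on the minus strand for Cmtm2a and chr8:104321977-104322226 on the plus strand for Cmtm2b. The first 20 transcribed bases after the Cmtm2a start occur in its GENCODE vM21 transcripts, while those after the Cmtm2b start do not, so the RefSeq start of Cmtm2b was not matched there. Capitals mark the bases that differ between them or have no partner inside the alignment.
Cmtm2a: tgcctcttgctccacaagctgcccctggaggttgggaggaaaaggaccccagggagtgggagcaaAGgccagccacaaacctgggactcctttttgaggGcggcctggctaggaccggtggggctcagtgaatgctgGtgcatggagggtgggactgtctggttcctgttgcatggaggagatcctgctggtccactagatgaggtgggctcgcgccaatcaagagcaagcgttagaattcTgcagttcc
Cmtm2b: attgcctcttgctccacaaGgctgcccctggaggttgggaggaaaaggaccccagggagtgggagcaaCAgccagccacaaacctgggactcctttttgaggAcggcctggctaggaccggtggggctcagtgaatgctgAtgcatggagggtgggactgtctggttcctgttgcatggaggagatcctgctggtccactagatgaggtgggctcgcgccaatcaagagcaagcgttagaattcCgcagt

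Cmtm2a was at 197, 214, 226 and 209.5 CPM in wild type and at 265, 295, 248 and 275 CPM in knockout, with no overlap. Its log2 fold change was 0.36 ± 0.0608 (SE; adjusted p = 1.34e-04), with an interval (0.23 to 0.48) that overlaps those of Clgn (0.22 to 0.42) and Ace (0.19 to 0.42). Cmtm2b was at 309, 282, 300.1 and 295 CPM in wild type and at 367, 369, 323 and 334 CPM in knockout, also with no overlap (log2 fold change 0.23 ± 0.0559 SE; adjusted p = 0.00246). The call of Cmtm2b ended with library totals (0.09; adjusted p = 0.157) and with spermatocyte scaling (0.05; adjusted p = 0.408). The log2 ratio of Cmtm2a to Cmtm2b was -0.49 ± 0.117 in wild type and -0.36 ± 0.0825 in knockout, with overlapping libraries (exact permutation p = 0.114, adjusted p = 0.114), so a difference in response between the 2 copies was not detected. The pair is uncertain one by one: 43.9% of the 31-base words of Cmtm2a and 9.81% of those of Cmtm2b occur in Cmtm1, Gm45711 or the other copy, and Cmtm1 lies over Cmtm2a on the same strand.

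In the rest of the Cmtm family, 4 of 7 tested genes fell and none rose at the adjusted threshold, against 27.4% and 26.2% of all tested genes. Cmtm4 (-0.83), Cmtm6 (-0.42) and Cmtm7 (-1.23; 3.80 to 1.61 CPM) fell. Cmtm3 fell by 0.33 on the log2 scale (adjusted p = 0.0256), a call lost when any of knockout libraries 1 and 2 or wild-type libraries 2 and 4 was left out (adjusted p from 0.0546 to 0.0846). The median of the 7 was -0.42, opposite in sign to both Cmtm2 genes on the TMM scale and on the same side as both with round spermatid scaling (median -0.94).

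Ace encodes angiotensin-converting enzyme, whose short testis form is transcribed from a start inside the gene in developing sperm; sperm of males without that form do not pass into the oviduct normally. The counts are per gene and cannot separate the somatic from the testis form. The window before the inner of 2 RefSeq starts (GRCm38.p6, chr11:105974939-105975188, plus strand), which lies 7241 bases downstream of the first, is shown because the testis form is known to start inside the gene. Capitals mark TGAGGTCA, a variant of the cAMP response element, and an inverted CCAAT.
Ace inner start: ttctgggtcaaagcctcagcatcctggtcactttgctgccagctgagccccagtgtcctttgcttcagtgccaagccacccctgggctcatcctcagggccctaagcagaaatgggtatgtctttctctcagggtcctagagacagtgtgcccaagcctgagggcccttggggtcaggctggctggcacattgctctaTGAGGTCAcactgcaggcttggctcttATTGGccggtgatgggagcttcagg
It holds 1 match to TGAGGTCA, as do 1.94% of all windows of this length, and 1 to CCAAT. A window before one of the Calr3 starts holds the same pair of matches, and the window before the first Ace start holds neither. The 20 bases after the inner Ace start were not found in the GENCODE vM21 transcripts of Ace, whereas those after the first start were.

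Ace stood at 556, 491.5, 558 and 534 CPM in wild type and at 683, 660.4, 667 and 631 CPM in knockout. Every knockout library was above every wild-type library, and the log2 fold change was 0.30 ± 0.0526 (SE; adjusted p = 1.52e-04). Spermatocyte scaling ended the call (0.13; adjusted p = 0.0561). Gm11651, which lies over Ace on the opposite strand, shares 4.50% of its words and had 373 and 441 counts per group against 47482 and 51729 for Ace.

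Of 10 tested genes around the renin-angiotensin system, 2 rose and 5 fell, the same counts with library totals (1 and 8 with round spermatid scaling). Among all 21952 tested genes 26.2% rose and 27.4% fell, and 3848 and 8255 did so with library totals. That share was not counted with round spermatid scaling. Mas1, a receptor gene for a product of angiotensin, rose from 28.1 ± 2.14 to 49.0 ± 4.35 CPM (log2 fold change 0.80), and Ace3, a relative of Ace in the sperm head, rose by 0.54. Agt, the gene of the precursor angiotensinogen, fell from 390.2 ± 56.8 to 244 ± 36.1 CPM (-0.68), and Mme, which encodes the peptidase neprilysin, fell by 0.86 on the log2 scale. The 8 endothelial markers, which belong to cells that make the somatic form of Ace, summed to between 39.8 and 45.8 CPM in wild type and between 34.5 and 40.3 CPM in knockout; 3 of the 8 fell and none rose at the adjusted threshold. Their part in the Ace value was not tested.

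Tpst2 encodes a Golgi enzyme that adds sulfate to tyrosines of passing proteins; males without it are infertile. It had few counts, 182, 176, 227 and 171 in wild type and 113, 101, 116 and 109 in knockout. In CPM these were 9.37, 7.70, 8.84 and 8.22 against 6.07, 4.74, 5.49 and 6.345, with no overlap. Tpst2 fell to 0.662-fold (log2 fold change -0.60 ± 0.126 SE; adjusted p = 8.82e-04), with an interval (-0.86 to -0.33) that overlaps that of Tex101 (-0.63 to -0.37). Its relative Tpst1, which was at 81.4 ± 4.30 CPM in wild type, did not pass (0.12; adjusted p = 0.0814; -0.02 with library totals). The log2 ratio of Tpst2 to Tpst1 went from -3.26 ± 0.185 to -3.98 ± 0.185 with no overlap (exact permutation p = 0.0286, adjusted p over 6 ratios = 0.0429).

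The genes that make and carry the sulfate donor PAPS fell with Tpst2: of 6 tested sulfation genes, 5 fell and none rose, with a median of -0.74. The shares of all tested genes were 27.4% lower and 26.2% higher. Papss1 and Papss2, the genes of the PAPS synthases, had log2 fold changes of -0.87 and -1.11 and ended at 7.42 ± 0.518 and 4.72 ± 1.38 CPM in knockout. Slc35b2, the gene of the Golgi carrier of PAPS, fell by 0.62 and Sult1e1, an estrogen sulfotransferase gene known from Leydig cells, by 1.09. Leydig cell markers fell in the same libraries, all 12 of 12, with a median of -0.98. Their part in the fall of Tpst2 and of the sulfate genes was not tested.

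Rnase10 encodes a secreted protein of the RNase A family known from the first part of the epididymis, where sperm without it fail to keep ADAM3. In testis it was the second lowest of the genes per length, at 132, 117, 121 and 113 wild-type counts and 70, 131, 82 and 69 knockout counts. In CPM these were 6.79, 5.12, 4.71 and 5.43 against 3.76, 6.15, 3.88 and 4.02, and the groups overlapped through knockout replicate 2. The log2 fold change of -0.30 did not pass (SE 0.175, 95% interval -0.67 to 0.07; adjusted p = 0.163). Single libraries moved it both ways: it was -0.50 without knockout replicate 2 (adjusted p = 0.0183) and -0.19 without wild-type replicate 1 (adjusted p = 0.396). It passed with library totals (-0.44; adjusted p = 0.0393) and on both marker scales (-0.48 and -0.81). The 15 epididymis markers summed to between 4.32 and 6.01 CPM in wild type and between 2.30 and 4.40 CPM in knockout, mostly from Ros1. Defining epididymis genes such as Lcn5 and Lcn8 had 2 counts or fewer over all 8 libraries, and Rnase9, the neighbouring family member, had 1. Of the other RNase A genes, 2 could be tested and neither passed.

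Transcripts of the ADAM subunits and of further genes on the same route were tested in the same fit. Of 16 tested genes among the ADAM subunits and other oviduct-passage genes, 13 rose, 1 fell and 2 did not pass, with a median of 0.34. Among all 21952 tested genes 26.2% rose and 27.4% fell. With library totals 9 of the 16 rose and 2 fell, against 3848 and 8255 of all tested genes. With round spermatid scaling none of the 16 rose and 9 fell, and the share of all genes called there was not counted. The part of spermatids in these values was not tested. Adam3 stood at 1132 ± 61.1 CPM in wild type and 1516 ± 97.6 CPM in knockout (log2 fold change 0.42 ± 0.0567 SE; adjusted p = 1.41e-05). Adam2, the subunit that pairs with other ADAM proteins in the ER, rose less, from 412 ± 7.35 to 464 ± 14.4 CPM (0.17; adjusted p = 0.0058), and lost its call with library totals (0.03; adjusted p = 0.624). Adam1a (0.46) rose, but 78.4% of its words are shared with other genes, mainly Gm42878, Mapkapk5 and Adam1b. Adam6a (0.36) and Adam6b (0.37), near copies that share about as many words with each other (40.6% and 40.8%), rose together, as did Adam4 (0.48). Pmis2, a sperm surface gene of the same infertility type, rose from 49.9 ± 3.22 to 73.8 ± 6.42 CPM (0.56). The one that fell, named after its value was seen, was Ros1 (-1.03; 385 wild-type and 164 knockout counts), a receptor of the epididymis. Ovch2, a protease gene of the epididymis on the same route, had no count in any library.

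**Figure D3:**
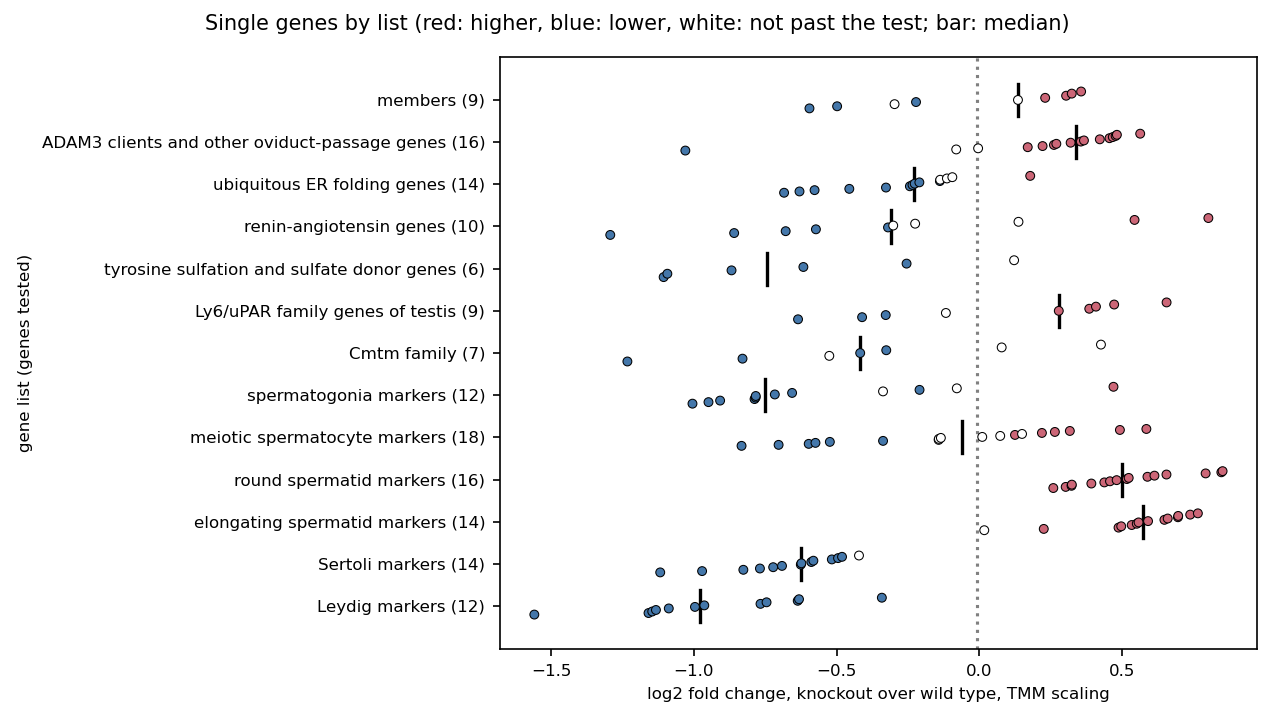
Log2 fold change of single genes (x axis, TMM scaling) in each list (y axis, with the number tested), where red is higher, blue lower and white not past the test; the bar is the median and the dotted line the median of all genes at -0.01. The 9 genes sit on both sides of 0 with a median of 0.14, ADAM and oviduct-passage genes mostly above (0.34), ER folding genes mostly below (-0.23); the higher calls of the first 2 lists are gone with round spermatid scaling.

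The scaling of the libraries decided where the zero lay for all of these genes. TMM factors were between 0.943 and 0.960 in knockout and between 1.04 and 1.07 in wild type. With library totals in their place the median of all tested genes moved from -0.01 to -0.15, and the split of calls from 5744 higher and 6008 lower (48.9% higher) to 3848 and 8255 (31.8%). On that scale Clgn was at 0.18, Ace at 0.16, Cmtm2a at 0.21 and Ly6k at -0.36, each moved by over 1.5 times, and Calr3 turned to -0.01. Scaled to the summed counts of 18 spermatocyte markers, a sum led by Ldhc and Pgk2, which spermatids also express, the median was -0.18, with 2 of the 9 genes higher and 4 lower. Scaled to the summed counts of 16 round spermatid markers, the median was -0.53, none of the 9 genes was higher and all 9 were lower. Clgn was then at -0.20, Cmtm2a at -0.16, Ace at -0.21, Cmtm2b at -0.29 and Calr3 at -0.38, with Ly6k at -0.74, Tex101 at -1.02 and Tpst2 at -1.11. The median of the 9 genes was -0.38 on that scale, above the -0.53 of all tested genes. How many of all tested genes were called was not counted on either marker scale. The counts given for any list on these scales therefore have no such share beside them and are no result about that list. A change of library size shifts all genes by about the same amount, so the order of the genes and their place beside the median carry over from one scale to the next by construction. Which scale fits the tissue was not tested.

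**Figure D4:**
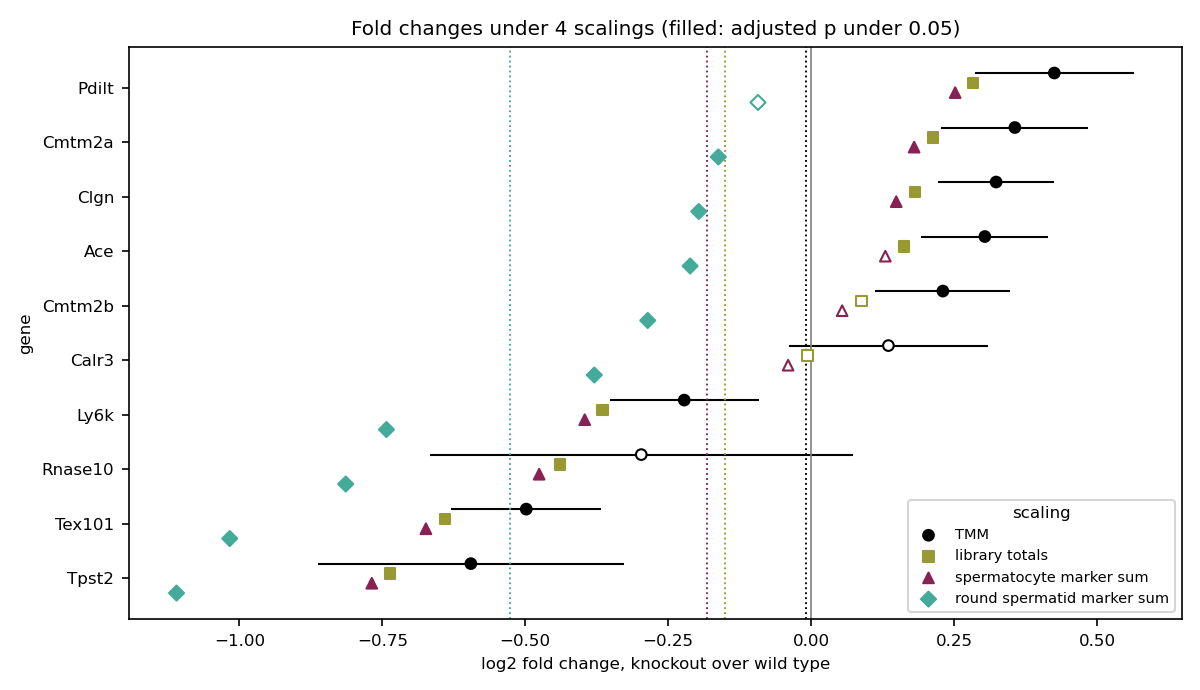
Log2 fold change (x axis) of the 9 genes and Pdilt under 4 scalings, with 95% intervals for TMM, filled where the adjusted p was under 0.05; dotted lines mark the median of all tested genes on each scale. Tex101, Tpst2 and Ly6k were lower on all 4 scales, while Clgn, Cmtm2a, Cmtm2b, Ace and Pdilt were above 0 on 3 and below 0 with round spermatid markers.

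Levels between genes were compared per length, as CPM per 1000 bases of exons (RPKM) with exon lengths from GENCODE vM21. In wild type, Cmtm2b led with 337 ± 12.7 RPKM, followed by Clgn with 167 ± 4.82 and Cmtm2a with 166 ± 9.43, whose libraries overlapped. Tex101 (137 ± 6.53), Ace (101 ± 5.86) and Ly6k (85.3 ± 5.80) came next, each apart from its neighbours. Pdilt (62.1 ± 4.70) and Calr3 (58.9 ± 7.40) overlapped, and Rnase10 (3.31 ± 0.542) and Tpst2 (3.06 ± 0.260) formed the low end and overlapped too. The length used for Ace counts the exons of both forms, which lowers its value if the short form prevails. In knockout Tex101 (96.7 ± 8.04) stood below Ace (125 ± 4.12) and overlapped Pdilt (83.4 ± 6.31), and Pdilt overlapped Ly6k (73.2 ± 1.61). The spread between replicates, as edgeR's biological coefficient of variation, was 5.40% for Clgn and 6.63% for Tex101 but 10.8% for Tpst2 and 15.5% for Rnase10, the 2 genes with the fewest counts.

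The named genes whose profile over the 8 libraries was nearest were found by the root mean square difference of centred log2 CPM among 12980 genes with a mean of at least 1. For Tex101 they were Rpl22 (0.0344), Rcc2 (0.0394) and Tnk2 (0.0414), with log2 fold changes of -0.50, -0.46 and -0.57. Cmtm2b was nearest to Ldhc (0.0185), the germ-cell lactate dehydrogenase gene, Cmtm2a to Stat4 (0.0361), Clgn to Usp42 (0.0282), Ace to Alkbh3 (0.0259) and Pdilt to Zbbx (0.0308). Calr3 was nearest to Mrpl55 (0.0506), Ly6k to Rpl7 (0.0380), Tpst2 to Stx4a (0.0503) and Rnase10 to Emx2 (0.1000). Both genotypes enter these distances, so that genes with a like fold change lie near each other by construction, and they are descriptions only.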

How the data were processed

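The authors deposited raw counts per Ensembl gene, with no normalization, for 8 testis libraries. The submitters' processing notes name STAR, featureCounts, Trimmomatic, FastQC, DESeq2 and build mm39; for versions, annotation, strand setting and multi-mapped reads, nothing is given in the sources used here. RNA extracted with TRIzol and cleared of DNA went into TruSeq RNA libraries, per the labels' protocols. Columns were assigned to samples by group name and replicate number.

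Symbols, exon lengths and overlaps came from GENCODE vM21 (GRCm38), and upstream sequences from RefSeq's GRCm38.p6 table, which held 8 of the 10 genes looked up; these differ from mm39, so they serve for names, lengths and printed windows only. Genes were kept by filterByExpr (minimum count 10, total 15), scaled by TMM and tested with edgeR 4.0.16 (R 4.3.3), with genotype as the only term; SE is the log2 fold change divided by the square root of F. The test was run on simulated counts with few changed genes, split evenly up and down, which cannot check the scaling in data with this many changes. DESeq2 1.42.0 and limma 3.58.1 gave alternatives, and ratios were tested with exact two-sided permutations (scipy 1.17.1). The smallest exact p is 0.0286. Named genes are all members, up to 4 genes of each other list with the smallest p, the terms of the ratios, Ssty2, the nearest genes by profile and, whatever their values, Adam1a, Adam2, Adam3, Adam6a and Adam6b. The members, lists and tests were chosen with earlier results of these data known. The symbols Nicol1 and Lypd10, listed with the relatives, matched no row, which does not show that their genes are absent under other names. Pdilt took the place of Pdilp in 1 of the 6 ratios.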

Additional observations from a re-analysis of the deposited data

Results flagged for a closer look

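Rnase10 in knockout replicate 2 stood apart from its group, at 6.15 CPM against 3.76 to 4.02 CPM in the other 3 knockout libraries. The gap to its nearest neighbour was 0.892 of the group's range, above Dixon's critical value for 4 values. In all, 32 groups of values were examined in this way, and chance marks about 1 in 20. The value rests on 131 counts in that library, against 69 to 82 in the others of the group.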

How the results depend on the processing

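With DESeq2, RLE factors, limma-voom, either other filter on low counts or library totals, and without each library in turn, the 9 genes gave from 3 to 5 higher and 3 or 4 lower calls. Scaled to round spermatid markers the counts were 0 higher and 9 lower, and scaled to spermatocyte markers 2 higher and 4 lower. The sign change there follows from the other library sizes, and the share of all tested genes called was not counted on these scales. On the round spermatid scale Clgn was at -0.20, Calr3 at -0.38, Cmtm2a at -0.16, Cmtm2b at -0.29, Ace at -0.21 and Pdilt at -0.093. Calr3 was at -0.0061 with library totals and at -0.040 on the spermatocyte scale, and Tpst1 was at -0.021 with library totals. Without 1 library each, the difference in log2 ratio ran from 0.51 to 0.60 for Clgn/Canx, from 1.076 to 1.154 for Pdilt/P4hb, from -0.78 to -0.63 for Tpst2/Tpst1 and from -0.32 to -0.25 for Tex101/Ly6k, with adjusted p from 0.0686 to 0.0857, because 3 against 4 libraries cannot go below an exact p of 0.0571. Replicate numbers are shared by both groups in the labels. Same-numbered libraries deviated together with Pearson's r from -0.0023 to 0.068 across genes. Knockout replicates 1 and 3 correlated best with their own number, and knockout replicates 2 and 4 with another. With 4 libraries per group, values this low cannot decide whether the numbers pair the libraries. With the replicate number as a block, 5 of the 9 genes were higher and 3 lower, with Calr3 at 0.14 (adjusted p = 0.0367), and 5915 genes were higher and 6203 lower among all tested. For Tpst2 and Rnase10, with 69 to 227 counts a library, depth limits what could be seen.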
